A study of Mus musculus with 12 samples.

Results

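Apolipoproteins and the protein that loads lipid onto them were examined in hepatocytes of mice in which *Gata4* and *Gata6*, encoding zinc finger transcription factors, were to be excised. The genes were chosen by name: *Apob*, *Apoa2*, *Apoa4*, *Apoa5*, *Apoc2*, *Apoc4*, *Apoe*, *Apoh*, *Apom* and *Mttp*. Of these 10 genes, 8 were measured, by 12 of the 20561 probes kept on the array, and each of the 12 probes was detected on all 12 arrays. For *Apoc4* and *Apoe* no kept probe bore the gene's symbol, and both were not analysed here.

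The hepatocyte is the main source of plasma lipoproteins. It builds very low density lipoprotein around a single molecule of apolipoprotein B, to which the microsomal triglyceride transfer protein, encoded by *Mttp*, adds triglyceride in the endoplasmic reticulum. Smaller, exchangeable apolipoproteins coat these particles and high density lipoprotein, and they guide lipases and receptors in plasma.

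RNA came from hepatocytes of 12 GATA4,6 fl/fl mouse samples of the strain C57BL/6 x 129Sv, 2.5 to 4.5 months old. Of these, 6 had received AAV8-Tbg-Cre (AAV-Cre), an adeno-associated virus in which the hepatocyte-active thyroxine-binding globulin promoter drives Cre recombinase, and 6 had received AAV8-Tbg-GFP (AAV-GFP), the control virus with green fluorescent protein. Both groups carried the floxed alleles, and RNA was taken 2 weeks after intravenous injection. Each sample had its own array (Illumina MouseWG-6 v2), on which 1 colour gives an intensity for each probe. The labels do not say that each sample is a separate animal or which arrays shared a chip, so p-values measure the spread between these samples and chip and group could not be examined apart. Values are log2 of the quantile-normalized signal, and differences are AAV-Cre minus AAV-GFP with the standard error (SE) of limma, a linear model fitted to all kept probes.

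Arrays detected 14318 to 16381 probes, with median exported signals of 215.38 to 287.53. The excised genes did not check the labels: *Gata4* was detected on 1 of 6 arrays labelled AAV-Cre and 0 of 6 labelled AAV-GFP, and the brighter *Gata6* probe ran from 10.94 to 12.07 on arrays labelled AAV-Cre, above the 9.47 to 10.08 on those labelled AAV-GFP. It is not known whether these probes lie in the deleted exons. In AAV-Cre replicate 3 the X-inactivation transcript *Xist* stood at 13.31 and the Y-linked *Eif2s3y* at 7.75, whereas the other 11 arrays held *Xist* between 7.70 and 7.95 and *Eif2s3y* between 11.53 and 11.89. The same array had the highest haemoglobin signal (*Hba-a1* 12.66), followed by AAV-GFP replicate 4 (11.27). *Alas2*, another erythroid gene, was lowest on AAV-Cre replicate 3, at 9.648, against 12.157 to 13.075 on the other 11 arrays. Of the 6 hepatocyte markers measured, none passed the test, and their mean level was 11.87 to 12.31 on arrays labelled AAV-Cre and 11.84 to 12.30 on AAV-GFP arrays. Markers of other cells also had no adjusted p under 0.05, and 1 had an adjusted p under 0.25: *Reln*, a stellate cell gene, differed by -0.88 (limma adjusted p = 0.205). The mean of 11 macrophage genes was 8.26 to 8.96 on arrays labelled AAV-Cre and 8.04 to 9.10 on AAV-GFP arrays, and that of 12 endothelial genes was 8.85 to 9.53 on arrays labelled AAV-Cre and 8.67 to 9.38 on AAV-GFP arrays. The mean of the 5 stellate genes measured differed by -0.22, that of the 2 bile duct genes by 0.22 and that of the 5 erythroid genes by 0.50. Of these markers, 3 macrophage and 8 endothelial genes were detected on all 12 arrays. The part of these cells in the results was not tested, other than by leaving out each array in turn.

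None of the 12 probes passed an adjusted p under 0.05, which 0.165% of all kept probes did. At the false discovery threshold of the study's methods, an adjusted p under 0.25, 2 probes passed, against 0.54% of all kept probes. They were the *Apoa2* probe, lower on arrays labelled AAV-Cre, and 1 of the 2 *Apom* probes, higher there. Neither changed by 1.5-fold, a size at which the study also counted genes. An unadjusted p under 0.05 was reached by 5 probes of 4 genes, 2 higher and 3 lower, against 5.05% of all probes. The groups did not overlap at 2 probes, those of *Apoa2* and *Mttp*, against 0.501% of all probes. SAM, the permutation method that the study's methods name, gave 0 of the 12 probes at a q under 0.05 and 3 at a q under 0.25, adding *Mttp*. Over all 20561 kept probes SAM gave 40 at a q under 0.05 and 148 at a q under 0.25.

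**Figure D1:**
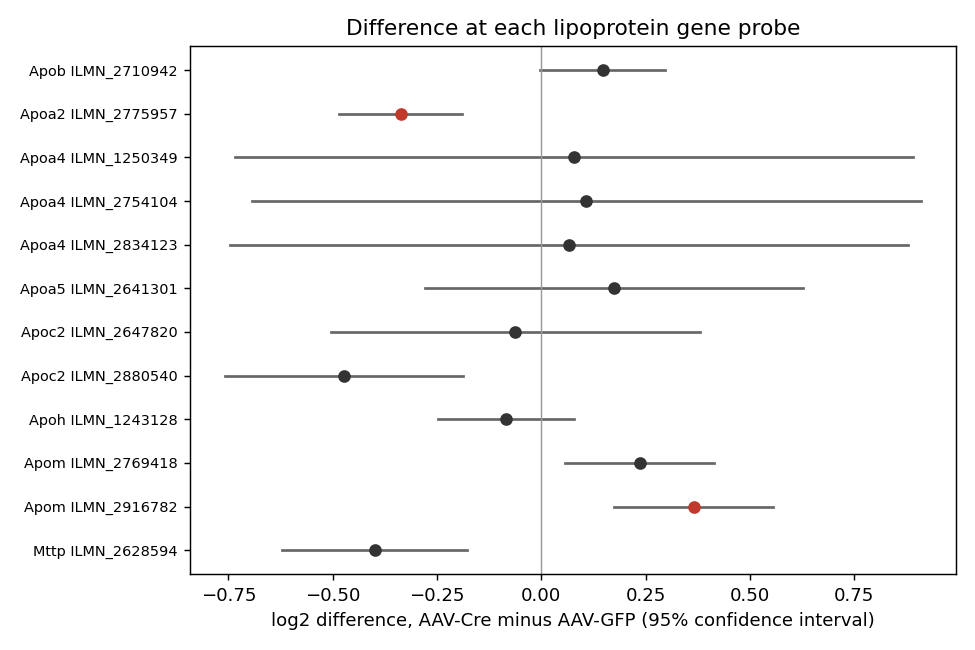
Log2 difference, AAV-Cre minus AAV-GFP, on the horizontal axis for each of the 12 lipoprotein gene probes on the vertical axis, with limma's 95% confidence interval (n = 6 arrays in each group). Red points have an adjusted p under 0.25 (*Apoa2* and ILMN_2916782 of *Apom*). The intervals of *Apoa4* are the widest of the 12, from about -0.73 to 0.89 at ILMN_1250349.

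The members moved in both directions. With the brightest probe of each gene, 4 of the 8 genes were above 0 and their median difference was 0.01, beside 0.00 over all 10838 named genes. The median size of the difference, regardless of sign, was 0.16 for the 8 genes and 0.07 over all named genes.

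Because GATA factors bind the core letters GATA, the RefSeq promoter windows of the members (300 bases, 250 before to 50 after a start site, build GRCm38.p6) were searched on both strands for a GATA motif, meaning the letters GATA preceded by A or T and followed by A or G, for the motif CAAAGTCCA of the hepatocyte factor HNF4A, and for the TATA box letters TATAAA. No match of 1 motif overlapped a match of another. All 10 genes matched, with 14 windows, of which 10 belonged to the 8 measured genes. A GATA motif was in 1 of these 10 windows, that of *Apoc2*, as TGATAA at bases -19 to -14 of the start site, whereas 29.8% of all 32851 windows held one. TATAAA was in 4 of the 10 windows, belonging to 3 of the 8 genes, and in 13.6% of all windows. It lay at bases -60 to -55 in *Apob* and -212 to -207 in *Apoa2*. In the windows of *Apoa5* it lay at -31 to -26 and -56 to -51 of their start sites. Whether these letters act as a TATA box was not tested. The 2 windows of *Apoa5* overlap and hold the same match. CAAAGTCCA was in 0 of the 10, against 0.475% of all. The 250 bases before the start site are given for the gene with the GATA motif and for the 3 genes with the lowest p-values, 5′ to 3′, with the GATA motif in *Apoc2* and TATAAA in *Apoa2* in capitals. The windows of *Mttp* and *Apom* held none of the motifs, and *Apoa2* has a second window that held none.
Apoc2 (chr7:19677942-19678191, minus strand): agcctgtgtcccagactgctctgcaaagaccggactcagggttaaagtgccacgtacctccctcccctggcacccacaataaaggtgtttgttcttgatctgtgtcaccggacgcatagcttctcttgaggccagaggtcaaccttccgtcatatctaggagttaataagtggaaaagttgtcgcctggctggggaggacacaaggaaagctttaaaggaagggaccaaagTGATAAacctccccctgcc
Apoa2 (chr1:171224804-171225053, plus strand): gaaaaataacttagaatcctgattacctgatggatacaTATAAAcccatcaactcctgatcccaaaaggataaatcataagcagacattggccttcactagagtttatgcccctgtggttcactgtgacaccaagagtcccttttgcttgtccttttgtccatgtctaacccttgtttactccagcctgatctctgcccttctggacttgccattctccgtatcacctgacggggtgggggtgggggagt
Mttp (chr3:138143419-138143668, minus strand): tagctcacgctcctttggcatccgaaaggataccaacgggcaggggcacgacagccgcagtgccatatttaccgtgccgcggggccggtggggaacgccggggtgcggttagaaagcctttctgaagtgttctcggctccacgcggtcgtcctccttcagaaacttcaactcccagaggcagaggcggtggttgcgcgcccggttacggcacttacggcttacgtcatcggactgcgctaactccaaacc
Apom (chr17:35131802-35132051, minus strand): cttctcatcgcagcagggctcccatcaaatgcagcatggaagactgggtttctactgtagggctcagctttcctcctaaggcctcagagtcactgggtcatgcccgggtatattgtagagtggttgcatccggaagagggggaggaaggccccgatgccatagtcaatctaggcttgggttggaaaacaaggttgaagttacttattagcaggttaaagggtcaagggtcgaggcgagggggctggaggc
These letters describe the reference sequence and not binding in these hepatocytes.

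*Apob* encodes the large structural protein of very low density lipoprotein and its remnants. Its probe, ILMN_2710942, had a lowest, median and highest value of 14.02, 14.17 and 14.31 on arrays labelled AAV-Cre, against 13.92, 14.01 and 14.18 on AAV-GFP arrays. The groups overlapped, with 3 of the 6 arrays labelled AAV-Cre above every AAV-GFP array. The difference was 0.15 (SE 0.07, n = 6 each), a 1.11-fold ratio with a 95% interval of 0.998 to 1.23 (limma adjusted p = 0.996, exact two-sided permutation p = 0.0455). An increase above 1.23-fold lay outside that interval at this probe.

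*Mttp*, the assembly factor, was lower on every array labelled AAV-Cre than on any AAV-GFP array. Values at ILMN_2628594 were 10.62 at the lowest, 11.03 at the median and 11.25 at the highest on arrays labelled AAV-Cre, against 11.29, 11.42 and 11.60 on AAV-GFP arrays. The gap between the groups was 0.04 on the log2 scale. The lowest value of all belonged to AAV-Cre replicate 3, the array with *Xist* and high haemoglobin. The difference was -0.40 (SE 0.10, 95% interval -0.62 to -0.18), that is 1.32-fold lower on arrays labelled AAV-Cre, with an exact permutation p of 0.00216, the smallest that 6 against 6 arrays allow, but a limma adjusted p of 0.276 over all kept probes. Without AAV-Cre replicate 3 it was -0.32 (adjusted p = 0.347), and the groups still did not overlap. In hepatocyte bulk RNA, fewer cells that express a gene and less of its RNA in each cell cannot be told apart.

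*Apoa2* encodes the second most abundant protein of high density lipoprotein. On the arrays labelled AAV-Cre its probe ILMN_2775957 ran from a lowest 11.73 over a median of 11.88 to a highest 12.00, against 12.03, 12.25 and 12.29 on the AAV-GFP arrays. All 6 arrays labelled AAV-Cre lay below all 6 AAV-GFP arrays, by 0.03 at the nearest pair. The mean was 11.87 ± 0.10 on arrays labelled AAV-Cre and 12.21 ± 0.10 on AAV-GFP arrays (SD, n = 6 each). The difference of -0.34 (SE 0.07, 95% interval -0.48 to -0.19) made *Apoa2* 1.26-fold lower, with a limma adjusted p of 0.0970 and an exact permutation p of 0.00216. Leaving out any 1 array kept it between -0.37 and -0.31, with adjusted p-values of 0.0694 to 0.228. Without AAV-Cre replicate 3 the difference was -0.33 (adjusted p = 0.181), and with normexp background correction it was -0.36 (adjusted p = 0.41).

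The groups at *Apoa2* and *Mttp* overlapped before quantile normalization. On the exported signals, before any normalization, *Apoa2* ran from 2914 to 4520 on arrays labelled AAV-Cre and from 3756 to 6225 on AAV-GFP arrays, and *Mttp* from 1500 to 3103 on arrays labelled AAV-Cre and from 2034 to 3161 on AAV-GFP arrays. With arrays scaled only to a common median, *Apoa2* differed by -0.26 (adjusted p = 0.841) and *Mttp* by -0.34 (adjusted p = 0.929). At both genes the groups then overlapped, and both directions were kept.

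**Figure D2:**
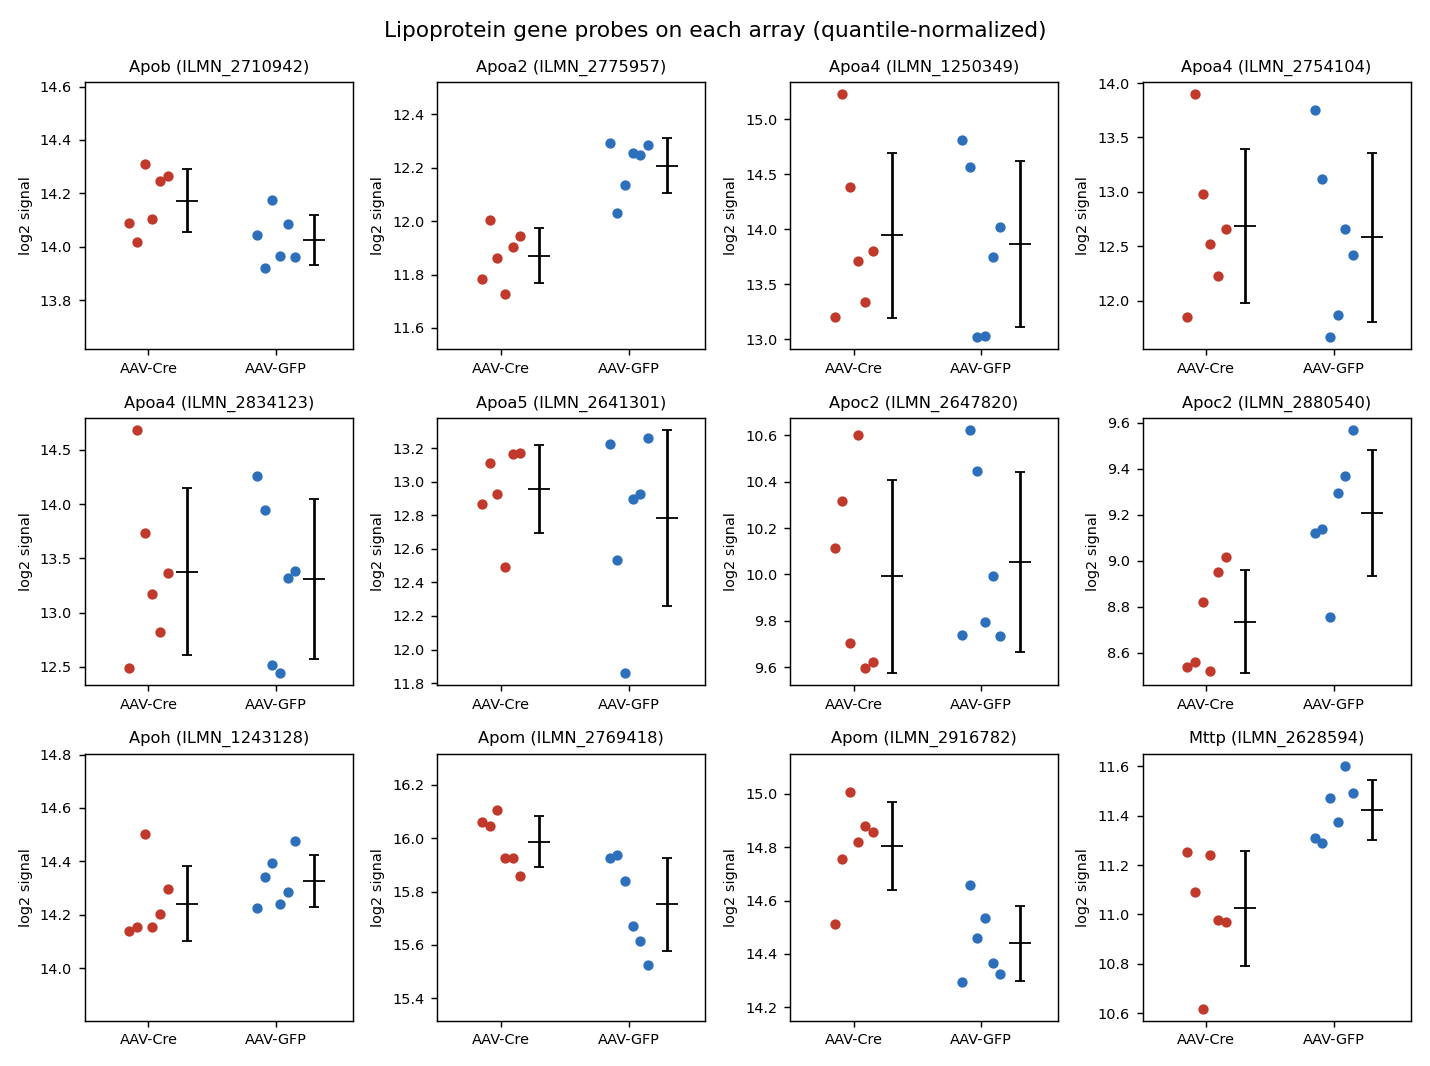
Quantile-normalized log2 signal (vertical axis) of the 12 lipoprotein gene probes on each array, with AAV-Cre arrays in red and AAV-GFP arrays in blue. Points are arrays and black bars give the mean ± SD (n = 6 each). *Apoa2* and *Mttp* show 2 separate groups of points, whereas the *Apoa4* points of both groups span a similar range of about 2 log2 units.

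*Apom* encodes a lipocalin of high density lipoprotein that carries sphingosine-1-phosphate. Both of its probes were higher on arrays labelled AAV-Cre. ILMN_2916782 had a lowest, median and highest value of 14.51, 14.84 and 15.01 on arrays labelled AAV-Cre, against 14.29, 14.41 and 14.66 on AAV-GFP arrays, and 5 of the 6 arrays labelled AAV-Cre exceeded every AAV-GFP array. Its difference was 0.37 (SE 0.09, 95% interval 0.17 to 0.56), 1.29-fold (limma adjusted p = 0.223, exact permutation p = 0.00649). The exception was AAV-Cre replicate 1. Without it the difference was 0.43 (adjusted p = 0.0615) and the groups did not overlap. An adjusted p under 0.25 was kept in 2 of the 12 fits that leave out 1 array and lost in 10, with adjusted p-values up to 0.483 (0.414 without AAV-Cre replicate 3), and it was lost with normexp background correction (0.536), with median scaling (0.377) and without the detection filter (0.276).

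The second *Apom* probe, ILMN_2769418, ran from 15.86 over a median of 15.99 to 16.11 on arrays labelled AAV-Cre, against 15.52, 15.75 and 15.94 on AAV-GFP arrays. The groups overlapped, and 3 of 6 arrays labelled AAV-Cre exceeded all AAV-GFP arrays. The difference was 0.24 (SE 0.08), 1.18-fold (limma adjusted p = 0.710, exact permutation p = 0.0216). On some arrays this probe was near the top of the scanner range. Its exported signal ran from 53.3% to 97.9% of the highest signal on its array. It exceeded 90% of that maximum on 3 arrays labelled AAV-Cre and 2 AAV-GFP arrays. In the authors' own normalized values its difference was 0.12. After removal of the group means the 2 *Apom* probes varied with a Pearson r of 0.15 (Spearman rho 0.23, permutation p = 0.641 for r and 0.511 for rho, 12 arrays). The r was -0.16 among arrays labelled AAV-Cre, 0.37 among AAV-GFP arrays and -0.25 without the 2 arrays farthest from the median. Whether signal near the scanner's maximum bears on this r was not tested.

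*Apoc2* encodes the activator of lipoprotein lipase, and its 2 probes, both annotated to the same transcript, differed. The dim probe ILMN_2880540 had a lowest, median and highest value of 8.52, 8.69 and 9.02 on arrays labelled AAV-Cre, against 8.76, 9.22 and 9.57 on AAV-GFP arrays. On 5 of 6 AAV-GFP arrays it exceeded every array labelled AAV-Cre, the exception being AAV-GFP replicate 3. The difference was -0.47 (SE 0.13, 95% interval -0.76 to -0.19), 1.39-fold lower on arrays labelled AAV-Cre (limma adjusted p = 0.378, exact permutation p = 0.0130). The lowest detected signal averaged 8.22 over the arrays, and with background subtracted by normexp the difference was -0.87 (adjusted p = 0.445).

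The brighter *Apoc2* probe, ILMN_2647820, showed no such difference. It ran from 9.60 over a median of 9.91 to 10.60 on arrays labelled AAV-Cre, against 9.73, 9.89 and 10.62 on AAV-GFP arrays, so the groups overlapped across nearly their whole range. The difference was -0.06 (SE 0.21, 95% interval -0.50 to 0.38, exact permutation p = 0.784). Within groups the 2 probes ran in opposite directions: after removal of the group means r was -0.755 (rho = -0.79, 12 arrays, permutation p = 0.00928 for r and 0.0053 for rho, adjusted p = 0.0116 and 0.00662 over the 5 pairs of probes of 1 gene). It was -0.92 among arrays labelled AAV-Cre, -0.63 among AAV-GFP arrays, and -0.835 without the 2 arrays farthest from the median. The position of the probes in the transcript was not analysed here, and where 1 probe stands for *Apoc2* elsewhere in the text it is ILMN_2647820, the brighter.

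*Apoa4*, a lipid-responsive apolipoprotein of chylomicrons and high density lipoprotein that is induced in the fatty mouse liver, varied most of the 8 genes among the arrays of both groups. Its probe ILMN_1250349 had a lowest, median and highest value of 13.20, 13.76 and 15.23 on arrays labelled AAV-Cre, against 13.02, 13.88 and 14.82 on AAV-GFP arrays. AAV-Cre replicate 2 and AAV-GFP replicates 1 and 2 were the 3 highest arrays. The span from lowest to highest was 4.07-fold among arrays labelled AAV-Cre and 3.48-fold among AAV-GFP arrays, while at the *Apob* probe it was 1.23-fold and 1.19-fold. This spread was measured alike by 3 probes: after removal of the group means the 3 pairs of *Apoa4* probes correlated with r of 0.97 to 0.99 (rho 0.96 to 0.97, adjusted p = 5e-05 for each r by 100000 permutations within groups). Among the 3 probes the group differences were 0.07, 0.08 and 0.11 (SE 0.37 to 0.38), with exact permutation p-values of 0.807 to 0.881. At ILMN_1250349 the 95% interval of -0.73 to 0.89 left room for a change in either direction.

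**Figure D3:**
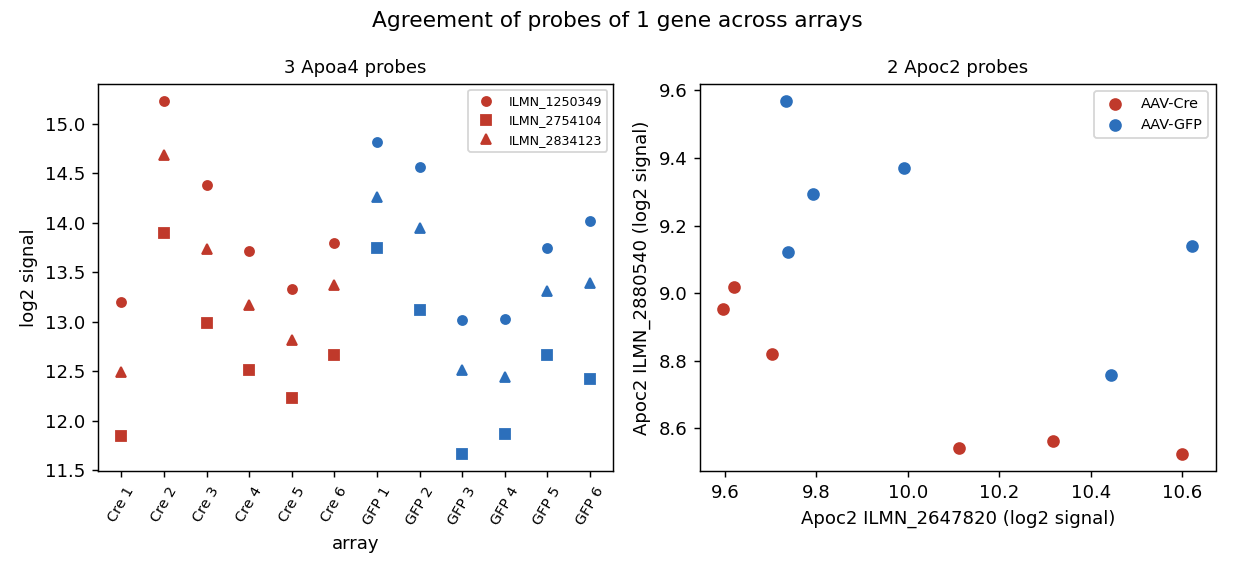
Left, log2 signal (vertical axis) of the 3 *Apoa4* probes on each array (horizontal axis), AAV-Cre in red and AAV-GFP in blue, with a symbol for each probe. Right, the 2 *Apoc2* probes against each other in log2 signal, 1 point per array. The *Apoa4* symbols shift together from array to array, whereas within each group arrays high at 1 *Apoc2* probe tend to be low at the other (r of -0.92 among AAV-Cre and -0.63 among AAV-GFP arrays).

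*Apoa5* encodes a low-abundance plasma protein that lowers triglyceride by promoting lipolysis. ILMN_2641301 ran from 12.49 over a median of 13.02 to 13.17 on arrays labelled AAV-Cre, against 11.86, 12.91 and 13.26 on AAV-GFP arrays. The AAV-GFP range enclosed the whole range of the arrays labelled AAV-Cre, and the lowest array was AAV-GFP replicate 3. The difference was 0.17 (SE 0.21, 95% interval -0.28 to 0.63, exact permutation p = 0.541), and -0.011 without AAV-GFP replicate 3.

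*Apoh* encodes beta-2-glycoprotein I, a plasma protein that binds phospholipid. Its probe ILMN_1243128 ran from 14.14 over a median of 14.18 to 14.50 on arrays labelled AAV-Cre, against 14.22, 14.31 and 14.48 on AAV-GFP arrays. On 4 of 6 arrays labelled AAV-Cre it was below every AAV-GFP array, but AAV-Cre replicate 3 was the highest of all. The difference was -0.08 (SE 0.08, 95% interval -0.25 to 0.08, exact permutation p = 0.255).

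**Figure D4:**
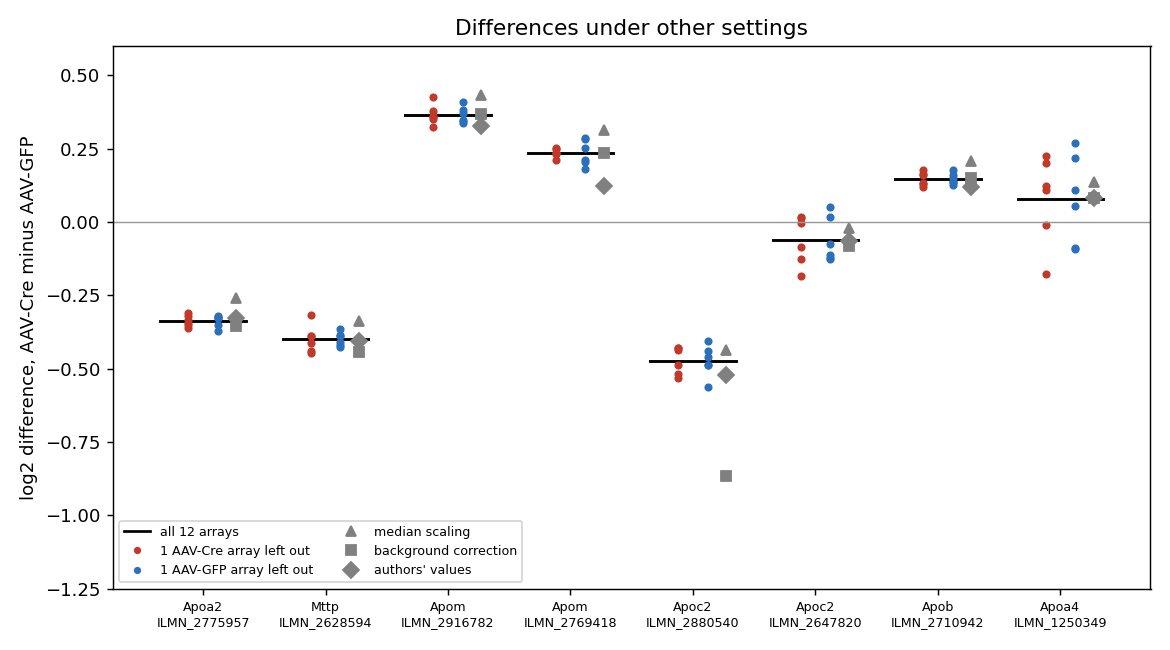
Log2 difference, AAV-Cre minus AAV-GFP (vertical axis), of 8 lipoprotein gene probes (horizontal axis) with all 12 arrays (black line), with 1 array left out (red and blue points) and with other processing (grey symbols). Differences of *Apoa2*, *Mttp*, *Apom*, *Apob* and ILMN_2880540 of *Apoc2* stayed on 1 side of 0, whereas those of ILMN_2647820 of *Apoc2* and of *Apoa4* fell on both sides.

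The arrays of a group differed from each other, and the members were compared for shared variation with the group means removed, using the brightest probe of each of the 8 genes (28 pairs). By Pearson correlation 0 pairs passed an adjusted p under 0.05 and 3 had an unadjusted p under 0.05, while by Spearman rank correlation 2 pairs passed the adjusted threshold. *Apoa2* and *Apoa5* varied together (r = 0.74, permutation p = 0.00897, adjusted p = 0.126; rho = 0.83, p = 0.00189, adjusted p = 0.0277). The correlation was 0.73 without the 2 arrays farthest from the *Apoa2* median, 0.88 among arrays labelled AAV-Cre and 0.72 among AAV-GFP arrays. *Apoa5* and *Apoc2* ran in opposite directions (r = -0.74, permutation p = 0.0051, adjusted p = 0.126; rho = -0.82, p = 0.00198, adjusted p = 0.0277), with -0.67 without the 2 farthest arrays, -0.73 among arrays labelled AAV-Cre and -0.82 among AAV-GFP arrays. Under median scaling its r was -0.48 (adjusted p = 0.289). That pair used ILMN_2647820 for *Apoc2*, and the other *Apoc2* probe ran opposite to it. The third pair, *Apoa2* and *Apoc2*, had r = -0.69 (permutation p = 0.0191, adjusted p = 0.178, with rho = -0.56, p = 0.0738, adjusted p = 0.492). Its r was -0.43 among arrays labelled AAV-Cre and -0.97 among AAV-GFP arrays, but -0.33 without the 2 farthest arrays, and so depended on those. *Apoa4*, despite its wide spread, was in none of these 3 pairs.

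Over the 12 arrays and 10830 other genes, with group means removed, the patterns most like *Apoa2* were those of *Plscr1* (r = 0.90), *Cyp46a1* (0.88) and *S100a11* (0.88). Those most like *Apob* were *Srpr* (0.92), encoding the receptor of the signal recognition particle, *Itga5* (0.87) and *Fst* (0.87). Those most like *Mttp* were *Mdm2* (0.90), *Map3k20* (0.885) and *Tspan31* (0.86). For *Apoa4*, added after its values were seen, they were *Kcnh2* (0.915), *Sike1* (0.89) and *Adtrp* (0.88). These are the highest of many correlations and are given as a description only.

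Other genes of the pathway were counted from lists of related function. Of 21 other apolipoproteins and proteins carried by lipoproteins, 13 were measured and 0 passed an adjusted p under 0.05, with a median difference of 0.02. *Apol7a*, an apolipoprotein L family member, differed by -0.88 (SE 0.27, limma adjusted p = 0.508), with the arrays labelled AAV-Cre spread by an SD of 0.72, against 0.20 on AAV-GFP arrays. *Pon2* and *Pon3*, paraoxonases, differed by -0.22 and -0.16 (limma adjusted p = 0.774 and 1.00 at the brightest probe of each).

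Among 36 genes of lipid loading and export of lipoproteins, 27 were measured and 0 passed, with a median of 0.00. *Aadac*, an arylacetamide deacetylase linked to the mobilization of stored triglyceride, came nearest: it averaged 9.20 ± 0.17 on arrays labelled AAV-Cre and 9.58 ± 0.16 on AAV-GFP arrays (SD, n = 6 each), a difference of -0.38 (limma adjusted p = 0.239, exact permutation p = 0.00433), and was the sole gene of this list with an adjusted p under 0.25. That call was lost in 10 of the 12 fits that leave out 1 array (adjusted p up to 0.529), with normexp (difference -0.58, adjusted p = 0.344), with median scaling (0.812) and without the detection filter (0.316). *Derl2*, of the endoplasmic reticulum degradation machinery, differed by -0.35 (adjusted p = 0.892) and *Creb3l3*, a membrane-bound factor that activates *Apoa4* and *Apoc2* in liver, by -0.21 (adjusted p = 1.00).

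Editing of the *Apob* messenger in mouse liver yields the short form apolipoprotein B-48. Of 5 genes listed under this heading, 3 were measured, of which 0 passed, and *Apobec2* and *Apobec3* were not measured. *Rbm47* differed by -0.12, *Apobec1*, the cytidine deaminase, by -0.07 and its cofactor *A1cf* by -0.03. *A1cf* was detected on 4 of 6 arrays of each group, and its SD was 0.83 on arrays labelled AAV-Cre and 1.27 on AAV-GFP arrays. Its 95% interval ran from -1.19 to 1.12, so a 2-fold change in either direction was not excluded.

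Of 27 receptors, lipases and plasma remodelling factors, 17 were measured and 0 passed, with a median of 0.06. *Vldlr*, the very low density lipoprotein receptor, averaged 9.61 ± 0.64 on arrays labelled AAV-Cre and 8.70 ± 0.43 on AAV-GFP arrays (SD, n = 6 each), a difference of 0.91 (SE 0.27, limma adjusted p = 0.481, exact permutation p = 0.0216). It was 0.76 without AAV-Cre replicate 3, 1.56 with normexp background correction (adjusted p = 0.438), and its SAM q was 0.248. An adjusted p under 0.25 was reached in 2 of the 12 fits that leave out 1 array, at the lowest 0.149 without AAV-Cre replicate 1. These values are of the brightest of 3 *Vldlr* probes, and the lowest limma adjusted p at any of the 3 was 0.330. *Scarb1*, the high density lipoprotein receptor, differed by 0.23 (0.51 with normexp) and *Angptl8*, an inhibitor of lipoprotein lipase, by -0.54 (adjusted p = 1.00 each).

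Among 33 transcription factors of lipoprotein genes, 28 were measured. At the brightest probe of each gene, 1 gene passed an adjusted p under 0.05 as higher and 0 as lower. It was *Gata6*, whose ILMN_2868133 was higher by 1.71 (SE 0.16, limma adjusted p = 3.77e-04), in the direction opposite to the label. The dimmer *Gata6* probe, ILMN_1255968, was higher by 0.26 (SE 0.10) and did not pass. It was detected on 4 of 6 arrays labelled AAV-Cre and 0 of 6 AAV-GFP arrays. Because the position of both probes relative to the deleted exons is not known, whether intact *Gata6* RNA changed was not tested. *Foxa1* and *Cebpb*, both activators of hepatocyte genes, differed by 0.52 (adjusted p = 0.722) and 0.36 (adjusted p = 0.920). *Hnf4a*, named for its role at many apolipoprotein promoters and chosen after its value was seen, differed by 0.16 (95% interval -0.08 to 0.39).

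**Figure D5:**
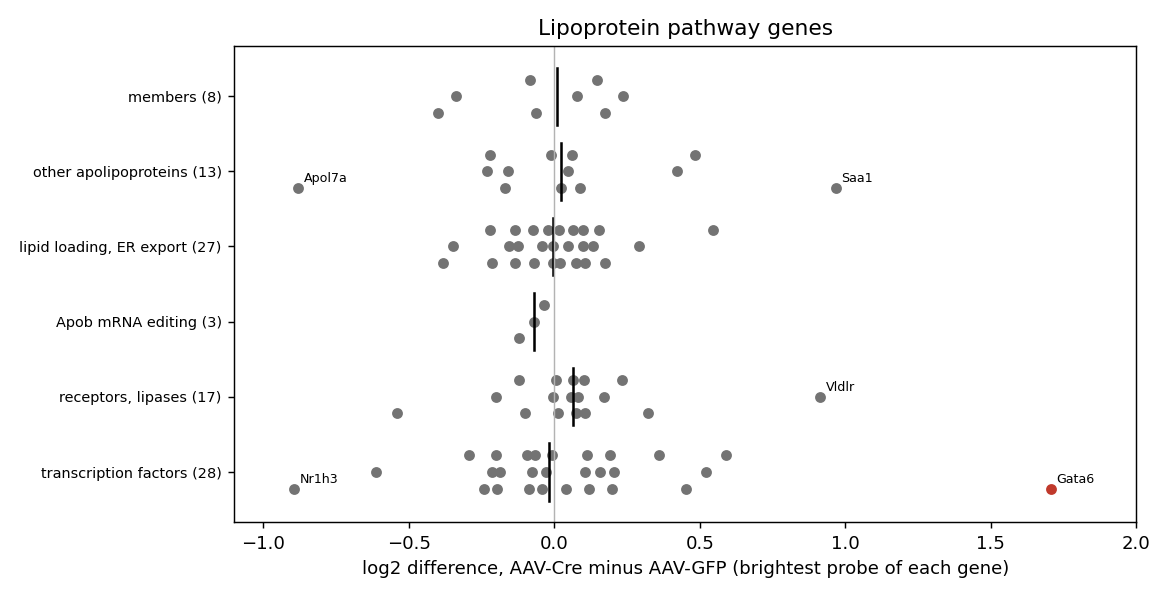
Log2 difference, AAV-Cre minus AAV-GFP (horizontal axis), of the brightest probe of each measured gene, in rows for the 8 member genes and the 5 pathway lists (number of measured genes in brackets). Black ticks are the medians of the rows, red marks an adjusted p under 0.05 and genes beyond 0.75 are named. *Gata6* alone is red, and the medians lie between -0.07 and 0.06.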

How the data were processed

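Total RNA of 12 hepatocyte samples was hybridised to Illumina MouseWG-6 v2 arrays. The deposited table, exported by the authors from GenomeStudio, gives for 45281 probes an intensity without background subtraction and, per the file headers, a detection p-value for each array. Its version was not stated in the labels or methods. A second deposited table holds the authors' quantile-normalized intensity of 19627 probes, used as an alternative. Symbols were taken from the annotation of the platform, and 3993 kept probes were unnamed here. Exported intensities were quantile-normalized, probes with a detection p of at most 0.05 on at least 1 array were kept, log2 was taken, and the groups were compared by limma (lmFit and eBayes, version 3.58.1, R 4.3.3; two-sided, Benjamini-Hochberg over 20561 probes). Exact permutation tests used all 924 assignments of arrays. The number of arrays limits the precision.

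The members, the lists, the tests and the alternatives were chosen with earlier results of these data known. All member probes were named; of each list, genes with an adjusted p under 0.05, then under 0.25, filled to 3 by lowest p. *Hnf4a* and the genes most like *Apoa4* were added after their values were seen. The alternatives tried were a replicate block, normexp, median scaling, the authors' values, other detection filters, SAM with 100 permutations, and leaving out each array. Scripts were tested on simulated data. Promoter windows are from RefSeq. Probe sequences were not used here.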

Additional observations from a re-analysis of the deposited data

Results flagged for a closer look

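In 1 of 54 combinations of a group and a named probe, a single array stood apart from the other 5 of its group: *Vldlr* at ILMN_2796472 was 9.56 on AAV-GFP replicate 4, against 8.62 for the next highest AAV-GFP array, a gap of 0.85 of the group's range. Chance flags about 1 in 20 groups. None of the 24 combinations of a member probe and a group stood apart in this way.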

How the results depend on the processing

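Under 19 alternatives 0 member probes reached an adjusted p under 0.05, and 7 of the 12 kept their direction in all. The 2 member probes with an adjusted p under 0.25 became 0 with normexp, 0 with median scaling and 1 without the detection filter. Over all probes tested, the 111 so called became 56 with normexp, 37 with median scaling and 80 without the detection filter. Leaving out 1 array gave 1 to 3 member probes, and *Apoa2* was among them in each of these 12 fits. Over all probes tested, leaving out 1 array gave 63 to 164. *Apom* was lost without AAV-Cre replicate 2, 3, 4, 5 or 6 or AAV-GFP replicate 1, 3, 4, 5 or 6, *Mttp* joined without AAV-Cre replicate 1, and ILMN_2880540 of *Apoc2* joined without AAV-GFP replicate 3. The groups at *Apoa2* and *Mttp* overlapped under median scaling (0 member probes apart), and leaving out 1 array gave 2 to 3 member probes apart. Under these alternatives the share of all probes apart was not counted. Leaving out 1 array reversed some differences, which ranged from -0.18 to 0.27, -0.13 to 0.34 and -0.19 to 0.26 at the *Apoa4* probes (ILMN_1250349, ILMN_2754104 and ILMN_2834123), from -0.011 to 0.27 at *Apoa5*, from -0.18 to 0.051 at ILMN_2647820 of *Apoc2*, from -0.30 to 0.12 at *Apobec1* and from -0.28 to 0.33 at *A1cf*, which was also 0.15 with normexp. The cause was not tested. Pairs of members with an adjusted p under 0.05 by Pearson correlation were 0 to 2 when 1 array was left out: 2 without AAV-Cre replicate 2, and 1 each without AAV-GFP replicate 2 and AAV-GFP replicate 3.

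The labels share replicate numbers, and whether a number marks a shared animal, litter or day is not stated. Same-numbered arrays correlated at -0.20 to 0.40 after removal of group means, over 0.1 for 4 of the 6 numbers, and for 4 of the 6 arrays labelled AAV-Cre the best match was the AAV-GFP array of its own number. This is a hint from the data, and the limit of 0.1, which 2 numbers did not exceed, is no test of pairing. The samples were not taken as pairs because the labels do not say what a number marks. With the replicate block 20 probes had an adjusted p under 0.05, against 34 without it, and 177 against 111 under 0.25, of which 3 were member probes: *Apoa2* (0.245), *Apom* (0.204) and, in addition, ILMN_2880540 of *Apoc2* (0.213). *Aadac* (0.345) and *Mttp* (0.427) were not among the probes under 0.25 with the block. Folds of dim probes are compressed by the background left in the signal, and those near the scanner's maximum have little room to rise.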
